A study of Mus musculus with 48 samples.

Results

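The 38 mouse genes described here encode SR proteins, SR-related factors of the nuclear speckle and the kinases that phosphorylate them. They were taken from a named list of symbols, matched to the 38293 Ensembl identifiers of the deposited count table, and all 38 were found. By role they are 8 SR proteins (Srsf1 to Srsf7 and Srsf9), 7 SR-like splicing regulators (Srsf10, Srsf11, Tra2a, Tra2b, Srek1, Srrm3, Srrm4), 8 speckle scaffolds or coactivators (Srrm1, Srrm2, Son, Pnisr, Pnn, Acin1, Thrap3, Bclaf1), 6 spliceosome-associated proteins (Luc7l, Luc7l2, Luc7l3, Prpf38b, Rbm25, Rbm39), 6 kinases (Clk1, Clk2, Clk4, Srpk1, Srpk2, Prpf4b) and 3 other nuclear proteins (Zc3h13, Srrt, Bod1l). The symbols were chosen by a reader of earlier results, in which several of them stood out on the difference between immunoprecipitated and total RNA in the mediobasal hypothalamus. That contrast is therefore described below without a test.

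SR proteins bind exonic sequences of pre-mRNA through RNA recognition motifs and recruit the spliceosome through a tail rich in arginine and serine. SRPK and CLK kinases phosphorylate this tail, and the phosphorylation governs how the proteins enter the nucleus and leave nuclear speckles, the granules in which Son and Srrm2 form the core. Many of these genes are known to control their own level by splicing in exons that send the transcript to decay, and neurons use several of them in their splicing programmes.

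The tissues were the DVC (dorsal vagal complex), where vagal fibres from the gut end in the hindbrain, and the MBH (mediobasal hypothalamus), home of the arcuate neurons that govern appetite. From each clarified homogenate a small part gave total RNA (input), and the rest went to an immunoprecipitation (IP) of ribosomes and their RNA through phosphorylated S6, a ribosomal protein whose phosphorylation marks recently active neurons. All mice were male C57/Bl6, aged 9 weeks and fasted for 6 h, and had been injected intraperitoneally at 10 µL per g. The injection held saline, AC3174 (dose 1 µg/kg), AC170222 (dose 2.5 µg/kg), or both in 1 injection group called the combination. The 16 groups of region, kind of RNA and treatment hold 3 libraries each, 48 in all. AC3174 is a GLP-1 receptor agonist, and the series title speaks of pairing GLP-1 with CCK. The labels' treatment text also lists AC710222 at 2.5 or 10 µg/kg, and exenatide, and does not say whether AC710222 is the same compound as AC170222. Neither the doses inside the combination nor the interval before dissection is stated, and the labels do not tell how many mice a sample pools. Where nothing says that samples of a group came from separate mice, p-values measure the spread between samples, which may be technical.

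Total counts per library ranged from 29492622 to 95079227 in DVC input, 102116189 to 191252522 in DVC IP, 36542586 to 80084056 in MBH input and 21782798 to 73940674 in MBH IP. Fewer than 12000 genes had a count in 6 libraries, all of them IP (1 DVC, 5 MBH), and the lowest held 6285. The region labels held: Hoxa5 and Hoxb5, which mark the hindbrain, had no count in any of the 12 MBH inputs. Nkx2-1, a hypothalamic regulator, averaged 28.7 CPM there against 0.016 CPM in DVC inputs. The whole marker lists separated less sharply. The 10 DVC markers summed to 453 to 987 CPM in DVC inputs and 143 to 412 CPM in MBH inputs. The 11 MBH markers summed to 30.9 to 68.6 CPM in DVC inputs and 259 to 512 CPM in MBH inputs. Levels below are CPM, counts scaled to 1e+06 per library on TMM-adjusted library sizes, and log2 differences carry the SE of edgeR's quasi-likelihood fit. A call is a Benjamini-Hochberg adjusted p under 0.05 over all genes tested. Bulk tissue cannot tell fewer cells of a type from less RNA per cell.

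RefSeq promoter windows on GRCm38.p6, which run from 250 bases before to 50 bases after a transcript start, were found for 35 of the 38 genes (46 windows). The 250 upstream bases are shown for Srsf5, Rbm39, Tra2b and Srsf10, the genes of lowest p in the comparison of the total RNA of both regions below, to let the reader see the kind of promoter these genes have. Capitals mark CCGGAAG (ETS), TGACG (the core of a cAMP response element), GGGCGG (GC box) and CCAAT, each on either strand. The windows lie upstream of the gene at chr12:80945249-80945498 (plus strand, Srsf5), chr2:156180239-156180488 (minus, Rbm39) and chr16:22266006-22266255 (minus, Tra2b). That of Srsf10, at chr4:135855821-135856070 (plus), precedes a RefSeq start. It lies inside the gene as annotated in GENCODE M21, where Srsf10 begins at 135855747.
Srsf5: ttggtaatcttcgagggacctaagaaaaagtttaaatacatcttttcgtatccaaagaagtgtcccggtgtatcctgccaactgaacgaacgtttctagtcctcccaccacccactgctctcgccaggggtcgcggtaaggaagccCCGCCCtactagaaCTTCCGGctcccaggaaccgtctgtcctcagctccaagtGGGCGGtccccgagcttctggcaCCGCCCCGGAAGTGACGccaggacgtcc
Rbm39: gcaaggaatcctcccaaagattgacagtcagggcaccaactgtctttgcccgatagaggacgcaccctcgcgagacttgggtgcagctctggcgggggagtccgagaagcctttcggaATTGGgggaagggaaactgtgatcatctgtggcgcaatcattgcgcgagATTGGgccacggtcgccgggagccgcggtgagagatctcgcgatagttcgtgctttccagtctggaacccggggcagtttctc
Tra2b: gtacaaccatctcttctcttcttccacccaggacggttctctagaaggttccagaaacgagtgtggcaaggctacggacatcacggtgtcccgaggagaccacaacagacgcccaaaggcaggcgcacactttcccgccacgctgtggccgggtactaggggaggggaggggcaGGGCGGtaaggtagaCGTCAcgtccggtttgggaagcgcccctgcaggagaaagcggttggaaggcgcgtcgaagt
Srsf10: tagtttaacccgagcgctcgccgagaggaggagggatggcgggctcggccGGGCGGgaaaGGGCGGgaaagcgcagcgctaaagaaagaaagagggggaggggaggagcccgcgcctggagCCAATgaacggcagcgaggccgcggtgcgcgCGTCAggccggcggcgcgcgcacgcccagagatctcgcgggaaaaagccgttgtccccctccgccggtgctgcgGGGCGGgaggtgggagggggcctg
In these letters Srsf5 held 2 ETS matches, 3 GC boxes and 1 TGACG match, and its last GC box shares 1 base with the ETS match that follows. Rbm39 held none of these 3 motifs and 2 CCAAT matches. Tra2b held 1 GC box and 1 TGACG match, and Srsf10 held 3 GC boxes, 1 TGACG match and 1 CCAAT match.

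Over the 46 windows of 300 bases the median number of CpG dinucleotides was 26, against 7 in all 32851 RefSeq windows of the same length, and the median GC content was 63.33% against 52.67%. CCGGAAG was present in 30.43% of the member windows and 8.86% of all windows, TGACG in 50.0% and 20.81%, and GGGCGG in 58.7% and 35.66%. CCAAT was present in 32.61% of member windows and 37.41% of all, and TATAAA in 8.7% and 13.62%. These shares were not matched for GC content, and a match describes the letters only.

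In total RNA all 38 genes were expressed in both regions, over a wide range. Per kilobase of exon, the highest level in DVC input was that of Srsf7 (52.6 CPM per kb), a shuttling SR protein, followed by Srsf5 (51.0 CPM per kb) and then by Srsf9 (31.9 CPM per kb). In MBH input Srsf5 came first (77.9 CPM per kb), then Srsf7 (73.1 CPM per kb) and Srsf3 (37.8 CPM per kb), a small shuttling SR protein. The order of Srsf7 and Srsf5 in DVC rests on levels whose spread overlaps. At the other end stood Acin1 (2.22 CPM per kb in DVC input), which couples RNA processing to apoptotic chromatin condensation, and Luc7l2 (2.14 CPM per kb in MBH input), a relative of a yeast U1 snRNP subunit. Within DVC IP the order began with Srsf5 (69.6 CPM per kb), Srsf7 (55.3) and Rbm39 (54.3), and within MBH IP with Srrm2 (88.3), Srsf5 (76.0) and Rbm39 (62.4).

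No member was at 0 in any of the 12 DVC inputs, and 1 value of the 12 MBH inputs was 0 (Prpf38b in saline replicate 2). IP libraries held 6 zeros among DVC and 8 among MBH values, of which 7 fell in MBH IP AC3174 replicate 3, the library with 6285 detected genes, and 4 in DVC IP AC3174 replicate 3, which had 9925. The zeros belong to genes of low or moderate level there, such as the kinases Clk2 and Clk4, and also to Srsf7 and Tra2b in MBH IP AC3174 replicate 3.

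The first tested comparison asks which of these transcripts were richer or poorer on phospho-S6 ribosomes than in the total RNA of the DVC. Rbm39, Srrm2, Thrap3, Rbm25, Bclaf1, Zc3h13, Srpk2 and Srsf5 were higher in IP, by 0.33 to 1.30 on the log2 scale. Srsf2, Srsf9 and Luc7l2 were lower, by 1.47 to 2.97. Thus 8 of 38 were called higher (21.1%) and 3 lower (7.89%), against 6.80% and 13.6% of the 18465 genes tested. Among the 7629 genes that average 20 CPM or more in DVC input, a level that all 38 members reach and that was set after seeing the data, 14.9% were higher and 10.3% lower, so the members' counts stood nearer to this background. The median log2 difference of the members was 0.11, that of all genes -0.37 and that of the genes at 20 CPM or more -0.04. For members and all genes it was -0.005 and -0.47 with RLE scaling, and -0.005 and -0.50 with DESeq2. With the sample as a block it was -0.03 and -1.02. It was 0.09 and -0.41 without a filter, and 0.17 and -0.27 without libraries of under 12000 genes.

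SR proteins themselves were split. Below, libraries and samples are counted for members alone, and the same counts over all genes were not made. Srsf2, a speckle-resident SR protein that binds exonic enhancers and is mutated in blood cancers, ran from 9.23 through a median of 66.0 to 144 CPM in DVC input and from 2.22 through 7.28 to 18.7 CPM in IP. Of the 12 IP libraries 9 lay below every input, and the overlap came from 2 low inputs, saline replicate 1 (9.23) and AC170222 replicate 1 (11.3). The log2 difference was -2.97 ± 0.44 (adjusted p = 1.9e-04, edgeR, Benjamini-Hochberg). Srsf9, a small SR protein, spanned 17.2 to 81.6 CPM in input (median 60.4) and 0.45 to 46.1 CPM in IP (median 8.98). It was lower in IP in 12 of 12 samples, 11 IP libraries lay below every input, and the difference was -2.38 ± 0.41 (edgeR adjusted p = 6.65e-04). The same 2 inputs, saline replicate 1 (17.3) and AC170222 replicate 1 (17.2), were the lowest for Srsf9. Both genes have short exonic lengths, 2958 and 1653 bases, the only members under 3000, and exons of Srsf2 overlap Mfsd11 and Mettl23 on the other strand, whose reads cannot be told apart without strand.

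Srsf5 was the SR protein that rose. Its level ran from 172 through 209 to 237 CPM in input and from 155 through 267 to 406 CPM in IP, with 9 IP libraries above every input and 2 below. The difference was 0.33 ± 0.11 (edgeR adjusted p = 0.044), and the call was lost with RLE scaling, without a filter, with DESeq2, without DVC saline replicate 3 and with the sample as a block. The other 5 SR proteins did not pass the test. Srsf1, the founding member of the family, had medians of 117 CPM in input and 78.7 in IP, with 9 of 12 IP libraries below every input and a difference of -0.58 ± 0.21 (adjusted p = 0.0605). Srsf3 and Srsf7 were almost level, at 0.04 ± 0.12 and -0.04 ± 0.13, Srsf6 stood at -0.62 ± 0.26 and Srsf4 at -0.81 ± 0.49. The median of the 8 was -0.60. None of the 7 SR-like regulators passed, and theirs ranged from -0.63 for Srrm3, a driver of neuronal microexons, to 0.29 ± 0.16 for Tra2b, which promotes inclusion of exons rich in GAA. Tra2a, its paralogue, was at 0.13 ± 0.61.

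Speckle scaffolds and coactivators gave 3 higher and 0 lower of 8. Srrm2, the large scaffold at the core of speckles, ran from 96.3 through 194 to 297 CPM in DVC input and from 140 through 365 to 1188 CPM in IP. The highest IP values were in saline replicate 3 (1188) and AC3174 replicate 3 (995), 8 of 12 IP libraries exceeded every input and the groups overlapped. It rose by 1.22 ± 0.31 (edgeR adjusted p = 0.0106). With the sample as a block the value was 0.98 (adjusted p = 0.0653), and exons of Srrm2 overlap Elob on the other strand. Thrap3, a coactivator bound to the Mediator complex that also acts in splicing, lay between 57.8 and 84.4 CPM in input (median 70.3) and between 91.3 and 303 CPM in IP (median 139). All 12 IP libraries were above all 12 inputs, and the rise was 1.04 ± 0.18 (adjusted p = 5.94e-04). Bclaf1, the paralogue of Thrap3, rose by 0.81 ± 0.15 (adjusted p = 0.00115), from a median of 158 to 297 CPM, in 12 of 12 samples. Son, the other core scaffold, had medians of 163 and 198 CPM and a difference of 0.15 ± 0.20 that did not pass, and Pnn, Pnisr, Srrm1 and Acin1 ranged from -0.40 to 0.31.

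Among the spliceosome-associated proteins, Rbm39 had the largest rise of all members. This splicing factor, the target of the molecular glue indisulam, ran from 113 through 138 to 209 CPM in input and from 190 through 387 to 525 CPM in IP. A single IP library fell inside the input range, and IP was higher in 12 of 12 samples. The difference was 1.30 ± 0.16 (edgeR adjusted p = 3.82e-05). Rbm25, which tunes the choice of 5′ splice sites, rose from a median of 92.1 to 176 CPM, by 0.87 ± 0.18 (adjusted p = 0.00218), in 12 of 12 samples. Luc7l2 went the other way, from 18.9 through 31.6 to 56.1 CPM in input to 3.01 through 8.46 to 45.4 CPM in IP. Of its IP libraries 9 lay below every input, and the difference was -1.47 ± 0.34 (adjusted p = 0.00616). Its relatives Luc7l and Luc7l3 had differences of 0.02 ± 0.19 and 0.11 ± 0.19, neither past the test, and Prpf38b had -0.96 ± 0.72.

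Of the kinases only Srpk2, the SR protein kinase enriched in brain, was called. It ran from 164 through 212 to 242 CPM in input and from 211 through 284 to 450 CPM in IP, with 11 IP libraries above every input. The rise of 0.47 ± 0.12 (edgeR adjusted p = 0.00999) was not past the threshold with RLE scaling, where it was 0.36, and exons of Srpk2 overlap Kmt2e on the other strand. Prpf4b, a kinase of the U4/U6.U5 tri-snRNP, had a median of 46.6 CPM in input and 95.5 in IP, and 10 of 12 IP libraries were above every input while AC3174 replicate 3 was at 0. Its difference of 0.93 ± 0.58 missed the threshold (adjusted p = 0.314), and without that library it was 1.17 and passed. Clk1 (-0.25 ± 0.62), Clk2 (-1.40 ± 0.90), Clk4 (0.12 ± 0.31) and Srpk1 (0.11 ± 0.32) did not pass, and Clk2 was at 0 in 2 IP libraries. The 3 other nuclear proteins included Zc3h13, a scaffold of the m6A writer, which rose by 0.79 ± 0.21 (adjusted p = 0.0136; 0.72 and adjusted p = 0.112 with the sample as a block). Its input ran from 34.2 through 64.7 to 93.0 CPM and its IP from 59.7 through 117 to 184 CPM.

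**Figure D1:**
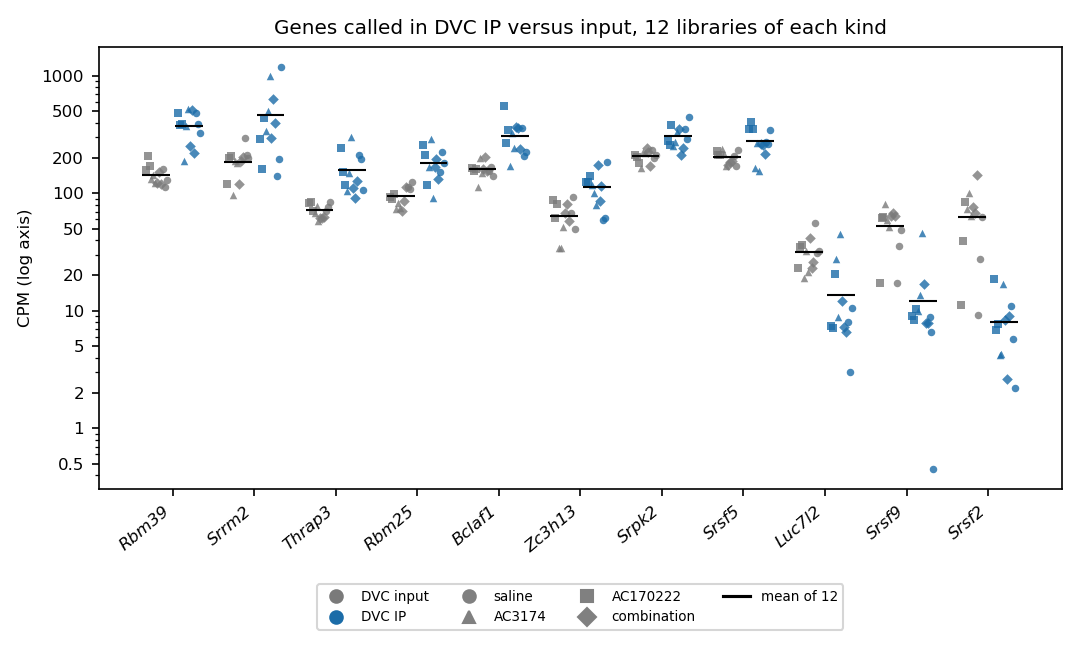
CPM (log axis) of the 11 genes called in DVC IP versus input, in 12 input and 12 IP libraries, with marker shapes for the 4 treatments and lines at the means of 12. Thrap3 shows no overlap between inputs and IP, and Srsf2, Srsf9 and Luc7l2 lie lower in IP.

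Other markers moved in the same comparison, in which 6.80% of all genes were higher and 13.6% lower. Neuron markers were higher in IP for 4 of 12 genes (Snap25 by 0.87 ± 0.09, Nefl by 1.49 ± 0.20, Stmn2 by 0.76 ± 0.10), and their summed level was 12170 to 14221 CPM in input and 15821 to 37885 CPM in IP. Oligodendrocyte markers were lower for 6 of 10 (summed 6039 to 8951 against 1593 to 7123 CPM), microglia markers for 5 of 9 (66.3 to 105 against 0 to 57.1 CPM) and endothelial and mural markers for 6 of 10 (23.3 to 65.1 against 0 to 144 CPM). Cspg4, Tek and Cdh5 were at 0 in all 12 IP libraries. Astrocyte markers were higher for 1 of 8 (3229 to 4553 against 2894 to 14723 CPM), and red blood cell genes for 2 of 5 (44.8 to 262 against 96.9 to 764 CPM). Mitochondrially encoded mRNAs were lower for 13 of 13, and nuclear-retained RNAs for 4 of 6, with Malat1, a long RNA of the speckle itself, lower by 2.87 on the log2 scale (log2 difference -2.87 ± 0.43). The part of these shifts in the members' differences was not tested.

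Related lists give the setting, beside 14.9% higher and 10.3% lower among genes of at least 20 CPM in DVC input. Sm and U snRNP proteins were higher in DVC IP for 6 of 17 and lower for 0 (median 0.49, with Snrnp25 at 0.93 ± 0.16, Snrpe at 0.67 and Snrnp27 at 0.61). Core spliceosome proteins were higher for 8 of 33 and lower for 1 (median 0.14, led by the helicase Ddx46 at 1.52 ± 0.17, with Snw1 at 0.89 and Bud31 at 0.98). The hnRNP proteins, which often oppose SR proteins at exons, were higher for 3 and lower for 4 of 26 (median -0.05, Hnrnpab at -2.24, Hnrnpl at -1.28, Hnrnpc at 0.75). Other RS-domain and speckle proteins split 5 higher and 4 lower of 27 (median -0.04, Rsrc1 at 0.92, Zranb2 at 0.65, Scaf4 at -4.05). Neuronal splicing regulators gave 5 higher and 1 lower of 18 (Rbfox1 at 0.72, Mbnl1 at 1.00, Mbnl2 at 0.62). Paraspeckle proteins gave 1 higher of 7 (Nono at 0.51), exon junction and decay factors 1 lower of 15 (Upf1 at -2.33) and m6A writers none of the 7 tested (Rbm15b, the other listed, had no count in any DVC library).

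Exon length moved with the IP difference among genes of at least 20 CPM in DVC input. The median of all such genes fell from 0.27 for those under 3000 exon bases to -0.29 for those of 9000 or more. The 13 members of 9000 bases or more had a median of 0.29, the 14 of 6000 to 9000 bases 0.12 against -0.17 for all genes, and the 9 of 3000 to 6000 bases -0.09 against -0.04. Thus the median of the longest members stood above that of all genes of their length class. Luc7l2 (12084 bases, -1.47) and Pnisr (10187 bases, -0.40) lay below that class median. Srsf2 and Srsf9 stood below the median of theirs. No test was made of this.

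**Figure D2:**
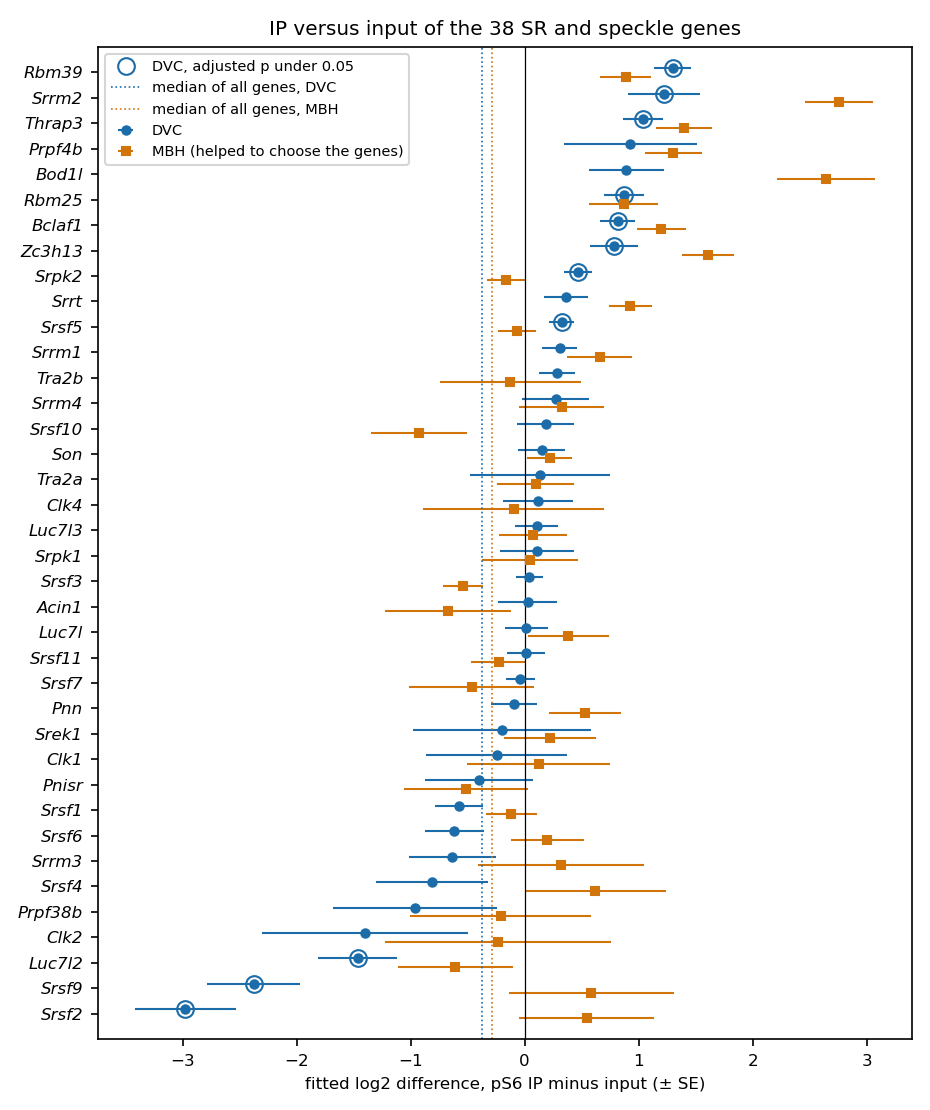
Fitted log2 difference of phospho-S6 IP minus input (± SE) for each of the 38 genes, in DVC (blue circles, ringed where the adjusted p was under 0.05) and MBH (orange squares, description only), with dotted lines at the medians of all genes. Rbm39 (1.30) leads in DVC and Srrm2 (2.76) in MBH, and Srsf2 is lowest in DVC (-2.97).

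The MBH contrast of IP and input helped to choose the genes and is given as values alone. Srrm2 had the largest difference, 2.76 ± 0.30. Its input ran from 26.9 through 171 to 241 CPM and its IP from 504 through 1058 to 1959 CPM, so all 12 IP libraries exceeded all 12 inputs. Bod1l, a protein that protects stalled replication forks, was at 33.4 through 72.1 to 148 CPM in input and 98.2 through 265 to 1398 CPM in IP (2.64 ± 0.43). Its 3 highest IP values were saline replicate 3 (1398), AC3174 replicate 3 (1300) and AC170222 replicate 3 (1063), all in libraries with fewer than 12000 detected genes. The part of library complexity in these values was not tested. In DVC IP the same 3 labels also held the highest Bod1l values (413, 493 and 246 CPM), and the difference there was 0.89 ± 0.33 (edgeR adjusted p = 0.0633).

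Zc3h13 followed with 1.61 ± 0.23 (medians 70.2 and 221 CPM), then Thrap3 with 1.40 ± 0.25 (80.6 and 196 CPM), Prpf4b with 1.31 ± 0.25 (56.8 and 143 CPM) and Bclaf1 with 1.20 ± 0.22 (242 and 547 CPM). Srrt, which links the cap-binding complex to RNA processing, stood at 0.93 ± 0.19, Rbm39 at 0.89 ± 0.22 and Rbm25 at 0.87 ± 0.30. Thrap3 in MBH, as in DVC, had all 12 IP libraries above all 12 inputs. Srrm2, Bod1l, Zc3h13, Thrap3, Prpf4b, Srrt and Rbm39 were higher in IP in 12 of 12 samples, matched by replicate number. The share of all genes higher in every sample was not computed, and this contrast helped to choose the members. At the low end were Srsf10, the regulator that represses splicing when dephosphorylated, at -0.92 ± 0.42, and Acin1 at -0.67 ± 0.55. SR proteins ranged from -0.54 ± 0.18 (Srsf3) to 0.62 ± 0.62 (Srsf4), with Srsf1 at -0.12 ± 0.22, Srsf2 at 0.54 ± 0.59 and Srsf7 at -0.47 ± 0.55. The other fixed examples were near 0, with Tra2a at 0.10, Tra2b at -0.13, Son at 0.22, Luc7l3 at 0.07, Clk1 at 0.13 and Srpk2 at -0.16. The median of the members was 0.21 and that of all genes -0.28. Without the libraries of fewer than 12000 genes these medians were 0.02 and -0.30, and with the sample as a block 0.02 and -0.94.

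**Figure D3:**
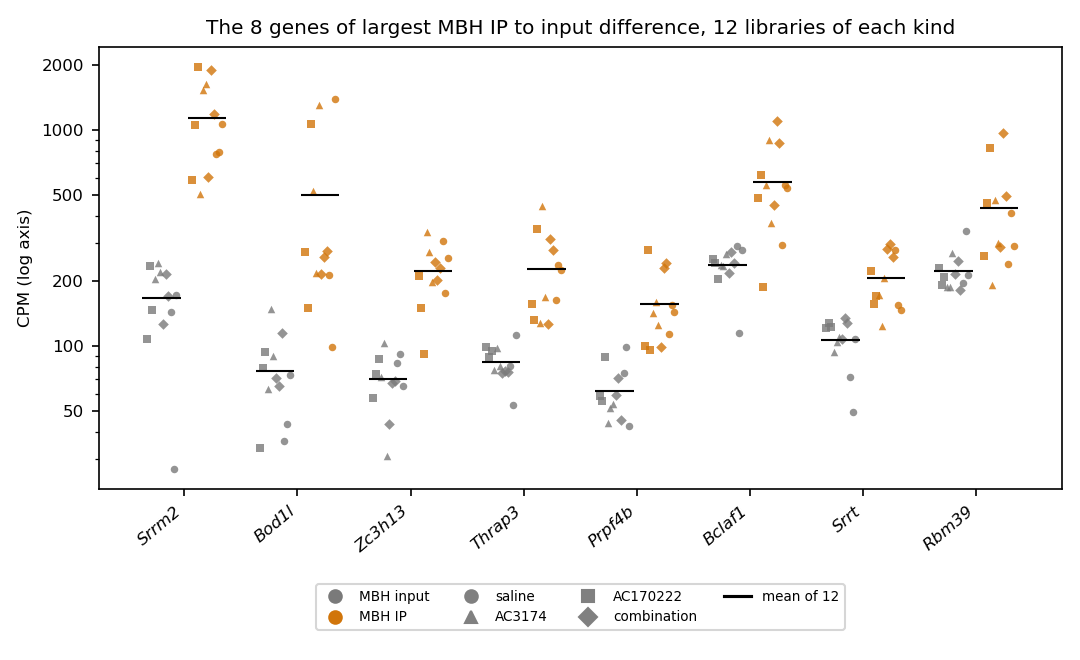
CPM (log axis) in 12 MBH inputs (grey) and 12 MBH IP libraries (orange) for the 8 genes with the largest IP to input difference, with marker shapes for the 4 treatments and lines at the means of 12. Srrm2 and Thrap3 show no overlap, and the 3 highest Bod1l values in IP run from 1063 to 1398 CPM.

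The next comparison uses total RNA only, and its 12 MBH inputs are also 1 side of the contrast that helped to choose the genes, so it is not independent of that choice. Between the regions, 9 of the 38 genes were lower in DVC than in MBH input and 0 were higher. They were Srsf3, Srsf5, Srsf7, Srsf10, Tra2b, Srek1, Bclaf1, Acin1 and Rbm39, and the differences were small, from -0.32 to -0.61 on the log2 scale. The share of 23.7% compares with 10.2% lower and 11.7% higher among all 18576 genes. Among the 7374 genes of at least 20 CPM in MBH input, which include 37 of the members, 21.4% were lower and 12.5% higher, so the members' share was near that of genes of their level. The median of the members was -0.19, of all genes 0.10 and of the genes at 20 CPM or more -0.11.

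Srsf5 had the lowest p. It ran from 172 through 209 to 237 CPM in DVC and from 231 through 317 to 403 CPM in MBH, with 10 DVC libraries below every MBH library. The difference was -0.58 ± 0.08 (edgeR adjusted p = 3.53e-05). Rbm39 ran from 113 through 138 to 209 CPM in DVC and from 182 through 210 to 341 CPM in MBH, with 11 DVC libraries below every MBH one, and the difference was -0.61 ± 0.11 (adjusted p = 2.91e-04). In Tra2b the levels were 113 through 140 to 172 and 139 through 201 to 234 CPM, and 7 MBH libraries exceeded every DVC library (-0.42 ± 0.08, adjusted p = 7.36e-04). Srsf10 ran from 43.5 through 72.4 to 84.9 CPM in DVC and from 63.0 through 101 to 154 CPM in MBH (-0.60 ± 0.13, adjusted p = 0.00288). In each of these 4 genes the groups overlapped.

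The other SR proteins that differed were Srsf7 (medians 196 and 246 CPM, -0.45 ± 0.10) and Srsf3 (243 and 279 CPM, -0.32 ± 0.09). Bclaf1 had medians of 158 and 242 CPM (-0.54 ± 0.13), Acin1 22.7 and 33.6 CPM (-0.61 ± 0.15) and Srek1, which modulates splice-site choice with other SR proteins, 52.7 and 76.6 CPM (-0.53 ± 0.17, edgeR adjusted p = 0.0304). The Srek1 call was lost with RLE scaling, with a block, and without any 1 of 8 libraries. By role, 3 of 8 SR proteins, 3 of 7 SR-like regulators, 2 of 8 scaffolds, 1 of 6 spliceosome-associated proteins, 0 of 6 kinases and 0 of 3 others were lower. Srsf9 (0.75 ± 0.31, adjusted p = 0.093) and Srsf2, the highest value at 0.88, did not pass. Nor did Srsf1 (0.06), Srrm2 (0.18), Son (-0.25), Tra2a (-0.24), Luc7l3 (-0.04), Clk1 (-0.23), Srpk2 (0.09) and Prpf4b (-0.42, adjusted p = 0.0563).

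**Figure D4:**
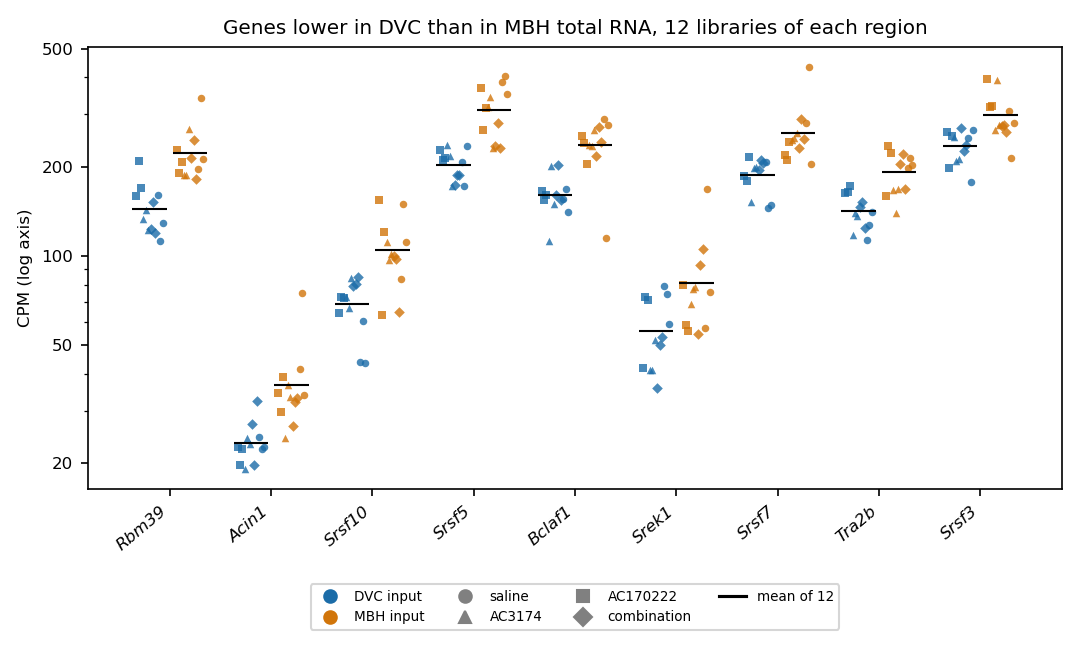
CPM (log axis) of the 9 genes lower in DVC than in MBH total RNA, in 12 libraries of each region, with marker shapes for the 4 treatments and lines at the means of 12. Medians of Srsf5 were 209 CPM in DVC and 317 CPM in MBH, and each gene's groups overlap by some libraries.

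With the 3 saline libraries of each region alone, 0 of the 38 passed (and 19 of 15276 genes in all), with Srsf5 at -0.87 and Rbm39 at -0.88. Leaving out single libraries gave 8 to 13 members, and the share of all genes called in those fits is not given. In the main fit 10.2% of all genes were lower in DVC, and 21.4% of those at 20 CPM or more in MBH input. Among other RNA-binding lists, hnRNP proteins were lower for 13 of 26 (Hnrnpr at -0.94, Hnrnpa2b1 at -0.56, Hnrnpk at -0.55, and 1 other higher). Sm and U snRNP proteins were lower for 10 of 17 (Snrpd1 at -0.92) and core spliceosome proteins for 10 of 33 (Sf3b6 at -0.79). Other RS-domain and speckle proteins were lower for 6 of 27, near the share of genes at 20 CPM or more (1 higher, Rsrc1 at 0.93). Markers of glia differed too, beside 11.7% of all genes higher in DVC and 12.5% of those at 20 CPM or more in MBH input. Oligodendrocyte markers were higher in DVC for 7 of 10, with sums of 6039 to 8951 against 1413 to 3227 CPM, and astrocyte markers for 7 of 8, with sums of 3229 to 4553 against 1449 to 1994 CPM. Neuron markers were higher for 7 of 12 and lower for 1 (12170 to 14221 against 6143 to 7520 CPM, Nefm at 3.27), and microglia markers for 1 of 9 (66.3 to 105 against 27.1 to 76.3 CPM). Aqp4 and Olig2 were each at 0 in 1 MBH input. The part of cell composition in the members' differences was not tested.

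Drug against saline gave no call. Each region and kind of RNA has 3 such comparisons, 12 in all and 456 tests over the members, and edgeR called 0 with adjusted p from 0.56 upwards. Across all genes tested edgeR called 0.00% in each of the 12. At an unadjusted p under 0.05 there were 20 of the 456 tests, in 12 members. The share of all genes at that p, for AC3174, AC170222 and the combination in this order, was 4.81%, 4.18% and 5.38% in DVC input and 6.58%, 5.25% and 5.44% in DVC IP. In MBH it was 8.59%, 6.57% and 8.57% in input and 1.98%, 1.56% and 0.860% in IP. DESeq2 called 6, namely Srsf10 and Luc7l3 in DVC input with AC3174, Srsf10 and Pnn in DVC input with the combination, Acin1 in DVC IP with AC3174 and Pnn in DVC IP with the combination. DESeq2 also called 1.31% and 1.56% of all genes in these DVC input comparisons and 7.23% and 5.91% in those of DVC IP, in the order AC3174, combination.

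Pnn, a desmosome and speckle protein that also acts in splicing, had the lowest p. In DVC input its 3 saline values were 104, 73.9 and 116 CPM and its combination values 58.5, 38.6 and 52.1 CPM, so these groups did not overlap. The difference was -0.96 ± 0.20 (edgeR, unadjusted p = 5.38e-04, adjusted p = 0.891). With AC3174 it was at 72.7, 67.4 and 63.6 CPM and with AC170222 at 85.2, 84.1 and 78.7 CPM. All 6 were above every combination value, and the AC170222 values overlapped the saline ones. In DVC IP Pnn was at 60.7, 72.4 and 170 CPM with saline and 37.8, 21.1 and 36.6 CPM with the combination (-1.67 ± 0.56, adjusted p = 0.817), again without overlap. In MBH input it was at 54.3, 82.3 and 73.5 CPM with saline and 72.1, 65.5 and 55.9 CPM with the combination, which overlap. Pnn was picked by its p, and the share of all genes whose groups do not overlap was not computed for any drug comparison.

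Srsf10 in DVC input was at 43.8, 60.2 and 43.5 CPM with saline and at 79.1, 80.7 and 84.9 CPM with the combination. The difference was 0.76 ± 0.18 (edgeR unadjusted p = 0.00118, adjusted p = 0.891). All 3 libraries with AC3174 (72.6, 66.5 and 84.5 CPM) and all 3 with AC170222 (64.1, 72.5 and 72.3 CPM) were also above the saline ones, and these comparisons share the saline libraries. Luc7l3 in DVC input was at 120, 88.5 and 69.1 CPM with saline and 58.3, 54.4 and 38.7 CPM with AC3174 (-0.85 ± 0.22, unadjusted p = 0.00288, adjusted p = 0.993). In MBH input Luc7l3 had 76.9, 155 and 88.1 CPM with saline and 53.6, 51.3 and 54.8 CPM with AC3174 (-0.99 ± 0.30, adjusted p = 0.56). None of these passes the correction over all genes. The bracketed codes in the titles, whose meaning is not stated, run in 3 sets of columns that are uneven over treatments: saline and AC170222 have 2 libraries in set 1 and 1 in set 2, and AC3174 and the combination 1 in set 2 and 2 in set 3. Drug and set are thus largely confounded for AC3174 and the combination, and only set 2 holds all 4 treatments. There, with 1 library each in DVC input, Pnn was at 116 CPM with saline and 58.5 with the combination, Srsf10 at 43.5 and 79.1, and Luc7l3 at 69.1 with saline and 58.3 with AC3174. With the set as a covariate the edgeR values in DVC input were -0.91 for Pnn (unadjusted p = 0.00841), 0.74 for Srsf10 (unadjusted p = 0.0189) and -0.59 for Luc7l3 (unadjusted p = 0.0975), and 12 of the 20 tests kept an unadjusted p under 0.05. Among members chosen as fixed examples of each role, the fitted differences from saline over the 12 comparisons ran from -0.23 to 0.36 for Srsf3, -0.73 to 0.10 for Son, -0.29 to 0.89 for Rbm39, -0.81 to 0.97 for Srrm2, -0.43 to 0.33 for Srpk2 and -0.66 to 0.49 for Prpf4b. Those of other examples were Srsf1 (-0.91 to 0.72), Srsf2 (-1.08 to 1.78), Srsf7 (-1.17 to 0.31), Tra2a (-1.11 to 0.78) and Clk1 (-1.14 to 0.37), and Tra2b stood between -0.36 and 0.52. No drug difference between the regions was called for any member as an interaction in input or IP libraries (lowest adjusted p = 0.525). Over all genes the AC3174 interaction in input was called as higher in 0.0108%, that of AC170222 in 0.00538% and that of the combination in 0.00538%, each as lower in 0.0108%, and the IP interaction in 0.00%. These interactions were added after seeing the data.

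**Figure D5:**
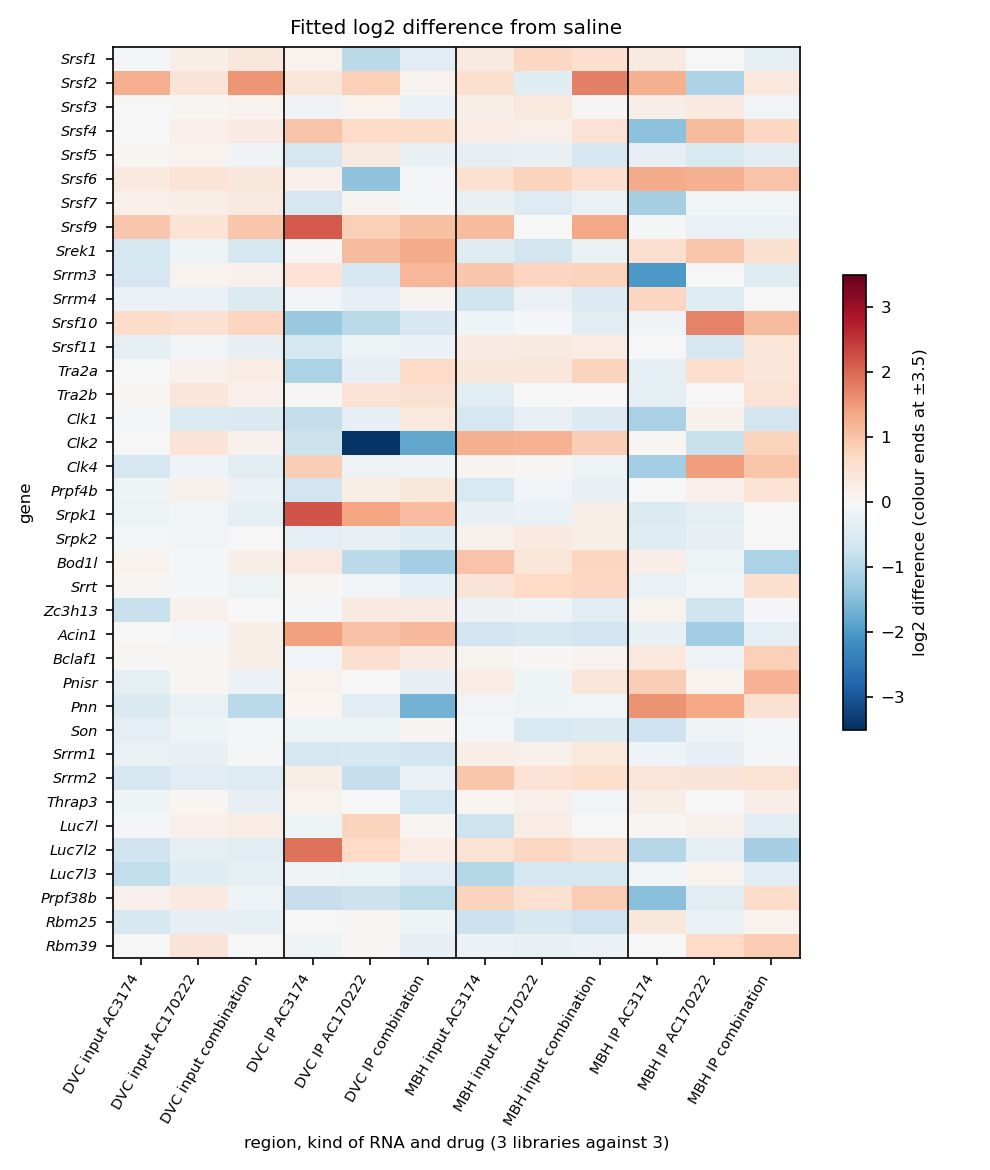
Fitted log2 difference from saline for the 38 genes (rows, by role) in the 12 comparisons of region, kind of RNA and drug (columns, 3 libraries against 3), in red where higher and blue where lower. The darkest cell is Clk2 in DVC IP with AC170222 (-3.43), and no cell passed the edgeR threshold.

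The combination against each single drug gave 8 comparisons and 304 tests, with 0 called by edgeR, 9 at an unadjusted p under 0.05 and 2 by DESeq2, both Pnn. Across all genes edgeR called 0.00% in each, and DESeq2 called 1.52% in DVC input against AC170222 and 2.79% in DVC IP against AC3174, the comparisons of its Pnn calls. The share of all genes at that unadjusted p, against AC3174 and then AC170222, was 4.54% and 4.76% in DVC input, 2.51% and 2.68% in DVC IP, 2.85% and 2.26% in MBH input and 2.09% and 1.58% in MBH IP. Pnn in DVC input was lower with the combination than with AC170222 by -0.73 ± 0.20 on the log2 scale (edgeR unadjusted p = 0.00356, adjusted p = 0.929), and the 3 values of each drug quoted above do not overlap. In DVC IP it differed from AC3174, whose values were 86.1, 78.6 and 155 CPM, by -1.73 ± 0.56 (edgeR adjusted p = 1). Srsf1 in DVC input differed between the combination and AC3174 by 0.48 ± 0.17 (unadjusted p = 0.0146), and Zc3h13 there by 0.78 ± 0.28 (unadjusted p = 0.0168, both adjusted p = 1).

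The change of the IP to input difference with drug was tested in 6 comparisons, 228 tests in all. None was called by edgeR, 7 had an unadjusted p under 0.05 and the lowest adjusted p was 0.365. Across all genes AC3174 gave 0.0379% called in DVC, AC170222 gave 0.0271% and the combination gave 0.0379%, all as higher, and 0.00% in each MBH comparison. At an unadjusted p under 0.05 it was 10.4%, 9.02% and 9.55% of all genes in DVC and 5.49%, 5.28% and 4.01% in MBH, in the same order. Srsf10 in DVC with AC3174 had the lowest p (-1.98 ± 0.71, edgeR unadjusted p = 0.0123). Its IP values were 156, 54.9 and 184 CPM with saline and 49.9, 96.2 and 14.7 CPM with AC3174, and these overlap. Luc7l2 (2.55 ± 0.97, unadjusted p = 0.0163) and Srsf6 with AC170222 (-1.94 ± 0.74, unadjusted p = 0.0164) followed. DESeq2 called 3, Srsf10, Luc7l2 and Acin1, all in DVC with AC3174, where it called 10.3% of all genes. Leaving out MBH AC3174 replicate 1 gave 2 calls in edgeR, Srrm3 (adjusted p = 0.0269) and Clk4 (adjusted p = 3.35e-04). In the 2 MBH IP AC3174 libraries that remain, both of under 12000 detected genes, Clk4 was at 0 and Srrm3 at 0.028 and 0.24 CPM.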

How the data were processed

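RNA-seq of 48 libraries of total and phospho-S6 immunoprecipitated RNA was read from 1 deposited table of raw counts per gene. Per the submitters' processing notes the authors used TopHat2 2.0.11, HTSeq 0.6.1p1 and GRCm38, with annotation, strand setting and parameters not stated in any label or header. The library kits named in the labels' protocols keep no strand and no molecular identifiers. Counts were fitted as deposited with edgeR 4.0.16 (TMM, filterByExpr, quasi-likelihood, 2-sided, Benjamini-Hochberg over all genes) in R 4.3.3, with DESeq2 1.42.0 as an alternative. Only the DVC IP versus input fit was run on simulated counts. These had independent libraries and a cap on the spread between replicates, so noisier genes were not covered. Annotation came from GENCODE M21, and per-kb levels use its exon length. The ratio of IP to input in a sample used a pseudocount of 1 CPM.

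The members and gene lists were chosen with earlier results of these data known. Named are all members called between IP and input in DVC or between the inputs, 13 fixed examples of the roles, the extremes of each comparison, the 3 members of lowest p in each drug family and up to 3 called genes per related list. Alternatives were RLE scaling, no filter on low counts, DESeq2, a replicate block, the set of library codes as a covariate, saline libraries only, and leaving out libraries singly or those of under 12000 genes. The spread between replicates was beyond the sampling noise of the counts in every pair (lowest chi-square per degree of freedom 130.085 over 48 pairs).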

Additional observations from a re-analysis of the deposited data

How the results depend on the processing

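Members called in DVC IP versus input numbered 11, and 8 to 13 under the alternatives. The main fit called 20.4% of all genes there. Alternatives that left out no single sample called from 7.59% (sample block) to 33.0% (DESeq2). Between the inputs the members called numbered 9, 8 to 13 under the alternatives, and 0 with the saline libraries only. The main fit called 21.9% of all genes there. Alternatives that left out no single library called from 15.0% (no filter) to 32.0% (DESeq2), and the saline libraries only 0.124%. DESeq2 called 6 members for drug versus saline, 2 for the combination versus single drugs and 3 for the change of IP to input, where edgeR called 0. In the comparisons of these calls DESeq2 called 1.31% to 7.23%, 1.52% to 2.79% and 10.3% of all genes. Leaving out the input and IP of 1 sample together gave 0 to 2 edgeR calls for the change of IP to input. The cause was not tested. The main tests took the libraries as unpaired. Counts of samples, IP to input ratios in a sample and the block in fits of IP with input instead match IP with input by treatment and replicate number. Between the inputs the block matches DVC with MBH by treatment and replicate number. For drug against saline, and the combination against single drugs, it matches equal numbers across treatments. The replicate numbers were not taken to pair the samples in the main tests, since not every pair deviated together (r over 0.1). IP and input did so in 0 of 12 DVC and 0 of 12 MBH samples, the regions in 4 of 12 input and 6 of 12 IP pairs, and equal numbers across treatments in 3 of 18 DVC input, 3 of 18 DVC IP, 2 of 18 MBH input and 14 of 18 MBH IP pairs. With the replicate block 8 members were called in DVC IP versus input (7.59% of all genes) and 9 between the inputs (16.1% of all genes). No member was called with any drug (0.00% of all genes in each comparison). Tra2a turned to -0.27 and Acin1 to -0.036 in DVC IP versus input.

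Signs turned only for members that were not called. In DVC IP versus input, Srsf3 was at -0.066, Luc7l3 at -0.010 and Acin1 at -0.089 with RLE scaling and at the same values (Luc7l3 at -0.011) with DESeq2. Without the libraries of under 12000 genes Srsf7 was at 0.11 and Srek1 at 0.048. Leaving out the input and IP of 1 sample together gave -0.028 to 0.12 for Srsf7, -0.14 to 0.37 for Tra2a and -0.35 to 0.084 for Clk1. It gave -0.047 to 0.22 for Acin1 and -0.58 to 0.078 for Srek1. Between the inputs, leaving out single libraries gave -0.011 to 0.15 for Srsf1, -0.10 to 0.056 for Luc7l3 and -0.37 to 0.0078 for Clk1. Tra2a was at 0.060 there with saline libraries only. In MBH IP, 5 of 12 libraries held under 12000 detected genes, which limits the levels of low genes there.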
